A study of Mus musculus with 2 samples.

Results

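The cadherin superfamily was followed in the dorsal skin of old C57BL/6 mice (18 to 20 months), which had received no treatment or red light. Members were the rows of the authors' deposited table whose symbols name cadherins (Cdh), cadherin-related genes (Cdhr), desmogleins (Dsg), desmocollins (Dsc), protocadherins (Pcdh), Dachsous (Dchs) or Fat genes. This rule gave 40 of the 4183 listed genes, out of 113 symbols that fit it in RefSeq. The red light group received 8 J/cm² daily for 28 consecutive days. GEO describes 2 samples, 1 per group, and both are whole skin of the same strain and age range, so epidermis, follicles, dermis, vessels, nerve and the muscle sheet under the skin all contribute RNA. How many animals stand behind each group is not known here. Levels are group means of FPKM as the authors computed them (fragment counts corrected for gene length and library size), so that different genes can be compared. The table holds no spread between animals, and therefore no p-value is given and no difference could be weighed against that spread.

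Cadherins are membrane proteins that hold cells together through calcium-dependent contacts, often between like molecules on neighbouring cells. Classical cadherins bind catenins and join the actin cytoskeleton at adherens junctions, whereas desmogleins and desmocollins bind plakoglobin and plakophilins and join keratin filaments at desmosomes. Each tissue uses its own set, with E- and P-cadherin in epithelia, VE-cadherin in endothelium and M-cadherin in muscle. Clustered protocadherins give single neurons a surface identity. In the alpha and gamma clusters each variable exon is spliced to constant exons shared by that cluster, whereas beta genes have no shared constant exons. The giant Fat and Dachsous cadherins orient cells within a tissue plane.

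The listed desmosomal and epithelial cadherins were higher after red light, and the listed endothelial, glial, muscle and gamma protocadherin genes were lower. The epithelial classical, endothelial, glial and muscle classes held 1 listed gene each. In all, 11 of the 40 members were higher and 29 lower. Of all listed genes 38.6% were higher and 61.4% lower, so the members' share of 27.5% higher lay below the background. Without the 16 gamma protocadherins, 11 of 24 members were higher, or 45.8%. The median log2 ratio of red light to untreated was −1.20 over the members and −1.21 over all listed genes. The table lists almost only genes that differ by at least 2-fold: 4 of its rows differed by less, none of them members. A family gene outside the table therefore says nothing about its change. The members' label and the direction of their means were the same for all 40, whereas 4 of all rows had a label against their means.

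**Figure D1:**
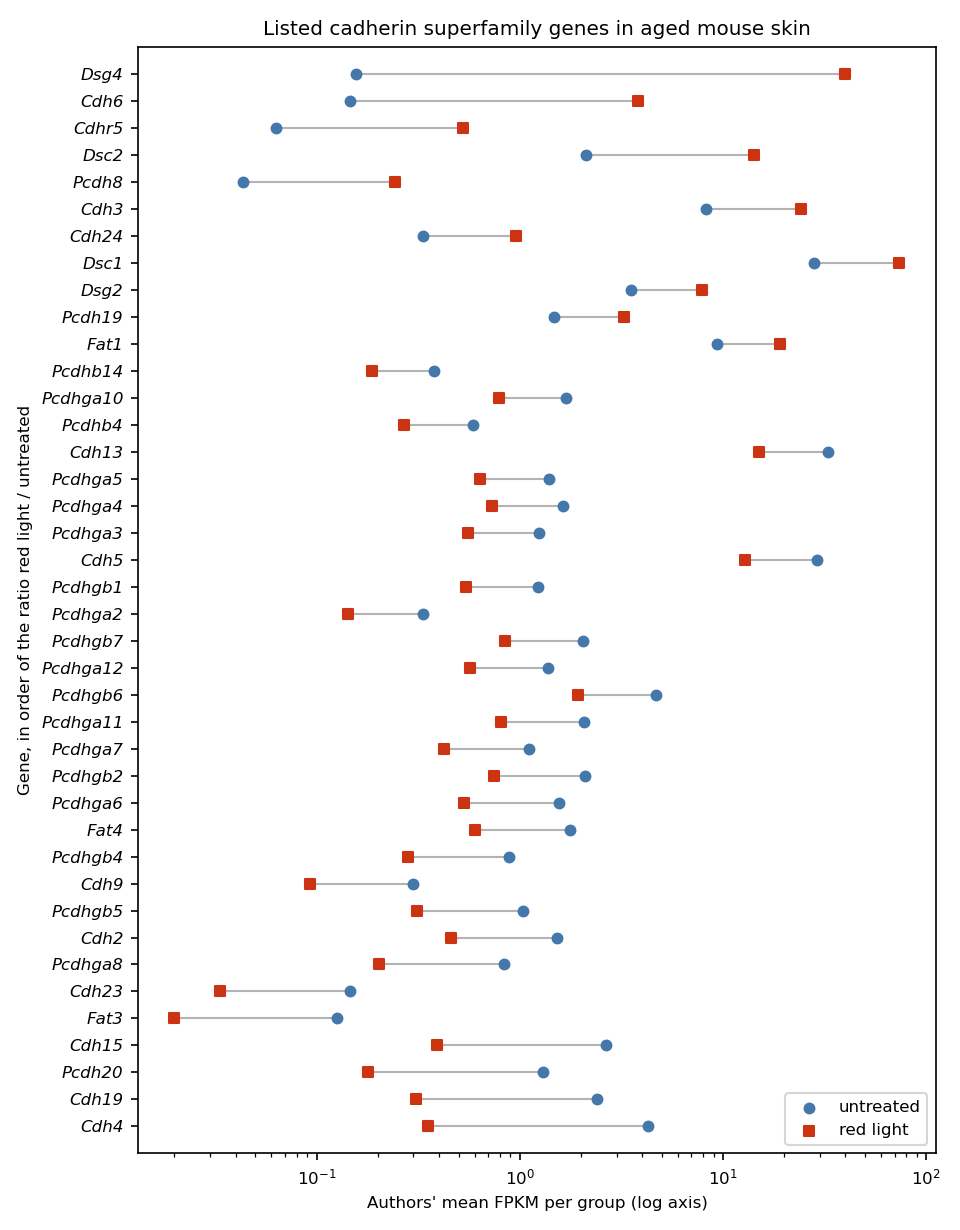
Authors' mean FPKM (log axis) of each of the 40 members in untreated (blue circles) and red light skin (red squares), ordered by their ratio. The 11 members at the top were higher after red light, led by Dsg4, and the 29 below were lower, with Cdh4 at the bottom.

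Hair genes took a large share of the listed signal after red light. In a list of hair shaft and inner root sheath genes, 80 of 83 were in the table and all 80 were higher, with summed FPKM of 217 in untreated and 67115 in red light skin. These sums were 0.171% and 40.2% of the listed total. Of these 80 genes 2 were at 0 in untreated skin, Crisp1 and Krtap5-3, listed at 9.50 and 2.03 FPKM after red light, and none was at 0 after red light. The keratin-associated genes Krtap24-1 (0.0867 and 76.2 FPKM) and Krtap19-4 (0.133 and 104 FPKM) had the largest finite ratios. FPKM is a relative scale, on which a larger share for some genes is a smaller share for the rest. Dividing each group by the summed FPKM of the listed genes without the hair list raised every log2 ratio by 0.34, and dividing by the sum of all listed genes lowered every one by 0.39. Neither could turn the direction of a member, since every member differed by at least 2-fold, more than either shift. In whole skin, fewer cells of a type and less RNA per cell cannot be told apart.

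Cdh6 and Fat1 were higher and Cdh15 was lower after red light, so these genes stand for different directions in the family. Windows around the annotated start of these 3 members are shown. They are RefSeq sequences of GRCm38.p6, from 250 bases before to 50 bases after the annotated start, 5′ to 3′ on the gene's strand. Every E-box (CANNTG, the general motif of basic helix-loop-helix factors, which single factors bind only in some forms) is in capitals. The build that the authors used is not known here. Cdh6 lies on the minus strand at chr15:13173626-13173925, Fat1 on the plus strand at chr8:44949958-44950257 and Cdh15 on the plus strand at chr8:122848124-122848423.
Cdh6: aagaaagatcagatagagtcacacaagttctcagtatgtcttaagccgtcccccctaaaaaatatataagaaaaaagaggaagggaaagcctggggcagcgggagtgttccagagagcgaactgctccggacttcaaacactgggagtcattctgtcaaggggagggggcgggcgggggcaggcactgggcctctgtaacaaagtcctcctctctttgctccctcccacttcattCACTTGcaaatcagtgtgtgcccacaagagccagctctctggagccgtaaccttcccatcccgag
Fat1: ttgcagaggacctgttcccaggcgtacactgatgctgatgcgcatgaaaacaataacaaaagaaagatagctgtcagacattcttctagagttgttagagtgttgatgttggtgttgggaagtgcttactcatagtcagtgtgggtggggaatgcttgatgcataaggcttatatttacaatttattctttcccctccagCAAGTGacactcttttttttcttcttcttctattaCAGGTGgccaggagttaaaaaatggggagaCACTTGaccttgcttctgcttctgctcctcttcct
Cdh15: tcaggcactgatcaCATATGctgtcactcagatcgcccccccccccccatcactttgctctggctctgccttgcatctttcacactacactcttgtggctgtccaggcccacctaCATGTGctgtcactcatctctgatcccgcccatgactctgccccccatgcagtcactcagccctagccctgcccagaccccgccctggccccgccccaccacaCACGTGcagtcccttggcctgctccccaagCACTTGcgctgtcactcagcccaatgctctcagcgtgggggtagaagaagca
The Cdh6 window held 1 E-box, which begins 15 bases before the start. The Fat1 window held 3, beginning 50 and 15 bases before the start and once after it, and the Cdh15 window held 4, beginning 236, 135, 32 and 2 bases before the start. E-boxes are common: 72.3% of the 32851 RefSeq promoter windows held at least 1, as did 8 of the 12 windows found for members. The form CACCTG, which Snail and Zeb repressors bind, was read on both strands. It stood in 20.2% of all windows and in 1 of the 12, that of Fat1. The form CAGCTG stood in 16.3% of all and in 1 of the 12, that of Cdh9, and TCAAAG, the core bound by TCF and LEF factors, read on both strands, in 16.0% of all and in 0 of the 12. CACCTG and CAGCTG are also counted as CANNTG. The windows were 53.0% (Cdh6), 42.7% (Fat1) and 61.3% (Cdh15) G and C, against a median of 52.7% over all windows. These matches describe the letters in the windows only. In the Fat1 window a pyrimidine-rich run ending in CAG precedes the annotated start, and an ATG follows it closely. Such letters also mark the end of an intron and a coding start, so this window may not be a promoter. The E-boxes and the CACCTG match of Fat1 are therefore not read as promoter motifs.

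The listed desmosomal cadherins were higher, and Dsg4 had the largest ratio of all members. Of the 9 family genes in RefSeq 4 were listed and all 4 were higher, Dsg4, Dsg2, Dsc2 and Dsc1. Dsg4, the desmoglein of the hair shaft cortex whose loss gives brittle lanceolate hair in mice, had 0.157 FPKM in untreated and 39.9 FPKM in red light skin. This was 255-fold higher (log2 7.99), but the size depends on the low untreated level: on the log2(FPKM + pseudocount) scale the difference was 5.14 with a pseudocount of 1 and 7.28 with 0.1. The order of Dsg4 among the 40 members by level went from 35 to 2. Its rank by ratio among the 1613 genes listed as higher was 179. The part of the hair genes, whose values are given above, in the Dsg4 difference was not tested. Dsc2, a desmocollin of stratified epithelia and heart, had 2.12 and 14.3 FPKM, a 6.74-fold difference. Dsc1, the desmocollin of the upper epidermis and inner root sheath, had 28.1 and 74.0 FPKM, 2.63-fold higher. Dsg2, the most widely expressed desmoglein, had 3.54 and 7.91 FPKM, 2.24-fold higher. The 4 genes thus spanned a wide range of ratios, with Dsg4 far apart from the other 3. Ratios between genes within a group do not depend on how the group is scaled. The ratio of Dsg4 to Dsg2 was 0.0443 in the untreated and 5.04 in the red light group, and that of Dsc2 to Dsc1 was 0.0752 and 0.193. Dsg1a, Dsg1b, Dsg1c, Dsg3 and Dsc3 were not in the table.

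Dsc1 went against most, but not all, listed markers of the suprabasal epidermis. Of 8 suprabasal markers 7 were listed, 1 higher and 6 lower, with summed FPKM of 6354 and 2249 and none at 0. The 4 named by the rule were Krt10, a keratin of this layer, at 1600 and 380 FPKM, Lor, a cornified envelope protein, at 678 and 188 FPKM, Krtdap at 1324 and 412 FPKM, and Ivl, the exception, at 23.7 and 73.2 FPKM. The ratio of Dsc1 to Krt10 was 0.0176 in the untreated and 0.195 in the red light group, and that of Dsc1 to Krt1 0.0597 and 0.431. Whether the follicle or the epidermis carried the Dsc1 signal was not tested.

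P-cadherin was the only listed member of the epithelial classical pair. Cdh3, the cadherin of basal keratinocytes and of the hair matrix, had 8.28 FPKM in untreated and 24.4 FPKM in red light skin, 2.94-fold higher. Cdh1, the gene of E-cadherin, was not in the table. Of 7 basal keratinocyte markers only Itgb4, an integrin of hemidesmosomes, was listed, at 41.5 and 19.8 FPKM, in the opposite direction to Cdh3. Summed over the listed desmosomal cadherins and Cdh3, the level was 42.2 FPKM in untreated and 160 FPKM in red light skin. These sums were 27.1% and 69.9% of the FPKM of the 40 members. Every member differed by at least 2-fold and all of these genes were higher, so a larger share follows largely from the listing. Cdh1, Dsg1a, Dsg1b, Dsg1c, Dsg3 and Dsc3 are in neither sum, so the shares do not describe all cadherins of the skin.

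**Figure D2:**
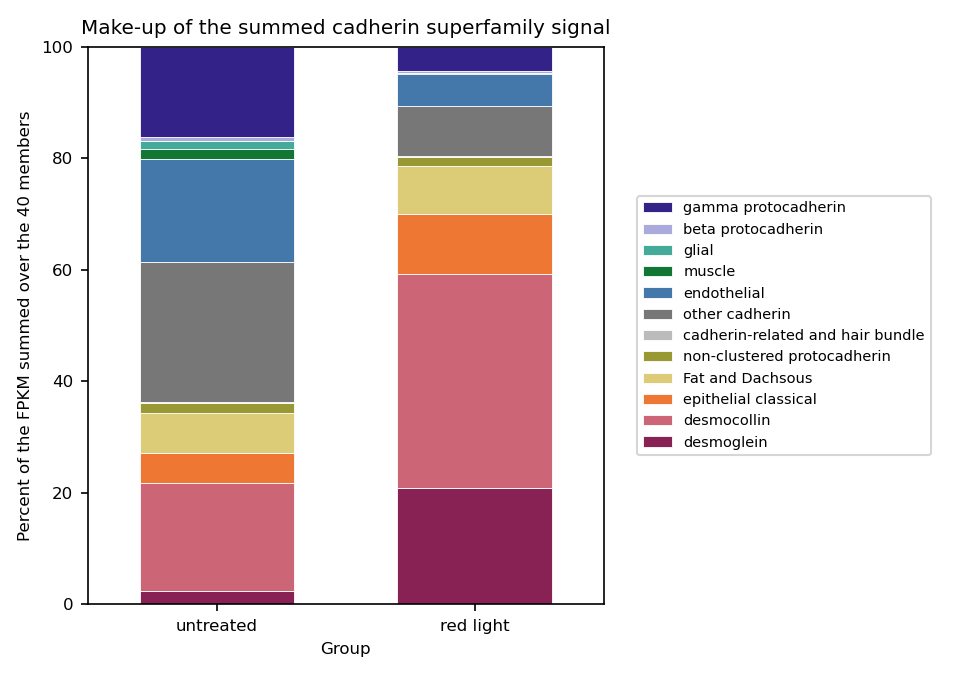
Percent of the FPKM summed over the 40 members that each class contributed in untreated and red light skin (1 stacked bar per group). Listed desmogleins, desmocollins and Cdh3 together made up 27.1% in untreated and 69.9% in red light skin, and gamma protocadherins 16.2% and 4.38%. Family genes outside the table, such as Cdh1, are in neither bar, so the bars do not show all cadherins of the skin.

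Partners of the junctions were only partly listed. Of 11 desmosome plaque genes 2 were in the table, both higher: Pkp3, a plakophilin, had 72.0 and 238 FPKM, and Evpl, which crosslinks desmosomes to the cornified envelope, had 26.1 and 62.5 FPKM. Of 19 adherens junction plaque genes 4 were listed, 2 higher and 2 lower. Ctnnb1, the beta-catenin that binds classical cadherins, had 156 and 313 FPKM and Nectin4, an epithelial adhesion receptor, 30.5 and 65.7 FPKM. The 2 lower genes were Ctnnd2, a delta-catenin known from neurons, at 1.01 and 0.417 FPKM, and Ctnna3, an alpha-catenin of heart and testis, at 0.613 and 0.150 FPKM. The ratio of Cdh3 to Ctnnb1 was 0.0532 in the untreated and 0.0779 in the red light group.

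Whether any factor or enzyme named here acted on a listed cadherin was not tested. Of 14 transcription factors that act in epidermis and follicle 8 were listed, 7 higher and 1 lower. Among all listed genes 38.6% were higher and 61.4% lower. The 4 named by the rule, all regulators of hair growth, were Msx2 (0.883 and 64.4 FPKM), Hoxc13 (0.967 and 61.8 FPKM), Foxn1 (0.800 and 45.1 FPKM) and Lef1 (0.813 and 19.8 FPKM). The 1 lower gene was Klf4, at 177 and 66.6 FPKM. Of 9 repressors of E-cadherin 4 were listed, 1 higher and 3 lower, though Cdh1, the gene of E-cadherin, was not in the table. Snai2, also a gene of the basal epidermis, had 2.83 and 9.49 FPKM, whereas Zeb1 had 8.01 and 3.62, Zeb2 14.0 and 5.03 and Twist1 33.2 and 11.2 FPKM. The last 3 are also expressed by mesenchymal cells of the dermis. Of 17 genes that cleave or turn over cadherins 3 were listed: Klk7, which digests corneodesmosomes, had 130 and 307 FPKM, and the matrix proteases Mmp9 (11.9 and 2.61 FPKM) and Mmp3 (53.7 and 8.52 FPKM) were lower. Of 4 receptors and ligands of cadherins on other cells Itgae and Itgb7, the subunits of the integrin by which T cells bind E-cadherin, were listed, at 3.14 and 0.970 and at 9.70 and 2.49 FPKM. Of 8 T cell markers 7 were listed, all lower, with summed FPKM of 24.5 and 6.48 and none at 0; those named were Cd3d (1.92 and 0.443 FPKM), Trdc (2.13 and 0.517), Cd3g (10.8 and 2.66) and Cd3e (3.59 and 0.937).

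Cdh5 and Cdh13 were lower by about the same ratio. Cdh5, VE-cadherin, the adhesion molecule of endothelial junctions, had 28.9 FPKM in untreated and 12.9 FPKM in red light skin, 2.24-fold lower. Cdh13, T-cadherin, which is anchored by a lipid, lacks a cytoplasmic part and binds adiponectin on vessel cells, had 32.8 and 15.1 FPKM, 2.18-fold lower. These were the members with the highest levels in untreated skin, and the order of Cdh13 by level went from 1 to 5 and that of Cdh5 from 2 to 7. The ratio of Cdh13 to Cdh5 was 1.13 in the untreated and 1.17 in the red light group, so the difference between the groups was nearly the same for both. Which cells of the skin carried the Cdh13 signal was not tested. The ratio of Cdh3 to Cdh5 was 0.287 and 1.89.

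Endothelial markers were lower alongside Cdh5. Of 11 endothelial markers 8 were listed, all lower, with a median log2 ratio of −1.40, summed FPKM of 216 and 75.5 and none at 0. The 4 named were Pecam1, at 70.8 and 24.9 FPKM, Cldn5 at 40.3 and 8.73, Vwf at 22.1 and 6.61 and Robo4 at 7.19 and 2.72 FPKM. Of 12 endothelial junction genes 10 were listed, all lower, with a median log2 ratio of −1.34. Besides Pecam1 and Cldn5, those named were the receptor Tie1, at 16.5 and 6.30 FPKM, and the phosphatase Ptprm, at 8.54 and 3.16 FPKM. The log2 ratio of Cdh5, −1.16, lay within the range of the listed markers, from −2.21 (Cldn5) to −1.10 (Egfl7). It was near the smaller end, and of the 8 markers only Egfl7 differed by less. The ratio of Cdh5 to Pecam1 was 0.408 in the untreated and 0.520 in the red light group, and that of Cdh5 to Cldn5 0.717 and 1.48. All 6 lymphatic endothelial markers were listed and lower, with summed FPKM of 300.2 and 86.9 and none at 0. They were Ccl21a (236 and 67.2 FPKM), Lyve1 (28.6 and 10.4), Mmrn1 (16.3 and 4.01), Reln (9.51 and 2.26), Flt4 (8.30 and 2.72) and Prox1 (1.22 and 0.307). Of 10 smooth muscle and pericyte markers 5 were listed, all lower, with summed FPKM of 549 and 103 and none at 0. They were Des (472 and 80.9 FPKM), which skeletal muscle also expresses, Myh11 (27.6 and 7.49), Rgs5 (24.5 and 7.73), Kcnj8 (14.6 and 4.21) and Cnn1 (10.3 and 3.09). The listed genes of every vessel wall list were thus lower, as were Cdh5 and Cdh13. These lists are not separate: the endothelial marker and junction lists share genes, among them Pecam1, Cldn5 and Tie1. Des made up most of the smooth muscle and pericyte sum. The part of endothelial cell number in the Cdh5 difference was not tested.

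**Figure D3:**
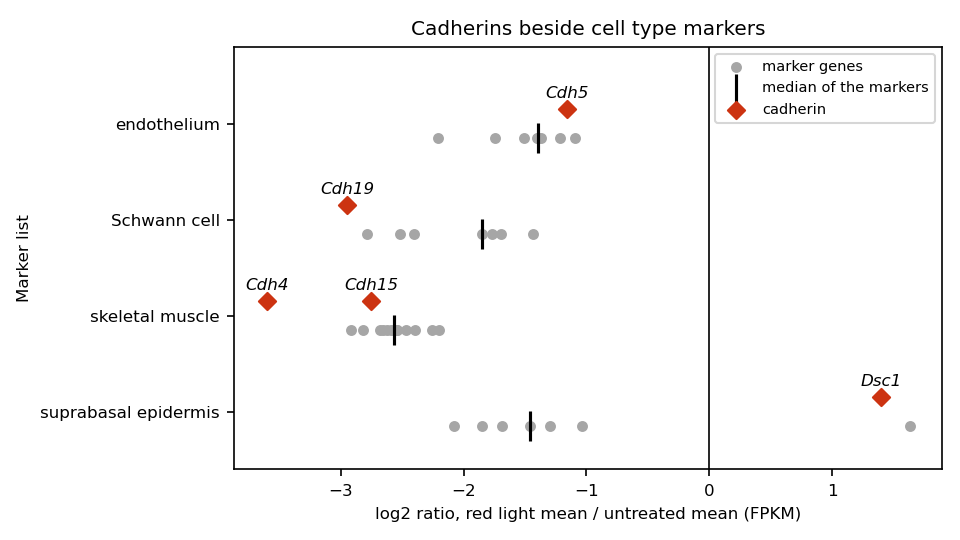
Log2 ratio of red light to untreated mean FPKM for 5 cadherins (red diamonds) beside the listed markers of the matching cell type (grey points, black bar at their median). Cdh5, Cdh19 and Cdh15 lay on the same side as all listed markers of their list, whereas Dsc1, at 1.39, lay opposite to 6 of the 7 suprabasal markers.

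Glial and muscle cadherins were lower by more than Cdh5 and Cdh13. Cdh19, a cadherin of Schwann cells and their precursors, had 2.39 FPKM in untreated and 0.310 FPKM in red light skin, 7.71-fold lower. Of 8 Schwann cell markers 7 were listed, all lower, with a median log2 ratio of −1.85, summed FPKM of 304 and 86.8 and none at 0. The 4 named were the myelin genes Mag (2.30 and 0.333 FPKM), Ncmap (8.42 and 1.47 FPKM) and Mbp (123 and 23.2 FPKM) and the neural crest factor Foxd3 (1.13 and 0.313 FPKM). The log2 ratio of Cdh19, −2.95, lay below those of all 7, which ranged from −2.79 to −1.44. The ratio of Cdh19 to Mag was 1.04 and 0.930, and that of Cdh19 to Mbp 0.0195 and 0.0133. Cdh2, N-cadherin, which neural, muscle and mesenchymal cells use, had 1.53 and 0.457 FPKM, 3.36-fold lower. The ratio of Cdh2 to Cdh19 was 0.642 in the untreated and 1.47 in the red light group.

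Cdh15, M-cadherin of muscle precursors and fibres, had 2.65 FPKM in untreated and 0.393 FPKM in red light skin, 6.73-fold lower. Cdh4, R-cadherin, known from retina, brain and developing muscle, had 4.29 and 0.353 FPKM, 12.1-fold lower, the largest difference among the lower members and rank 74 by ratio of the 2570 genes listed as lower. Of 16 skeletal muscle markers 13 were listed, all lower, with a median log2 ratio of −2.57, summed FPKM of 12767 and 2222 and none at 0. The 4 named were Myh4 (605 and 80.1 FPKM), Myh2 (149 and 21.1 FPKM), Actn3 (424 and 66.2 FPKM) and Tnni2 (1774 and 282 FPKM). The log2 ratio of Cdh15, −2.75, lay within the markers' range of −2.92 to −2.20, and that of Cdh4, −3.60, lay below it. The ratio of Cdh15 to the sarcomere gene Ttn was 0.197 and 0.177, and that of Cdh4 to Ttn 0.320 and 0.159. The part of muscle content in both differences was not tested.

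**Figure D4:**
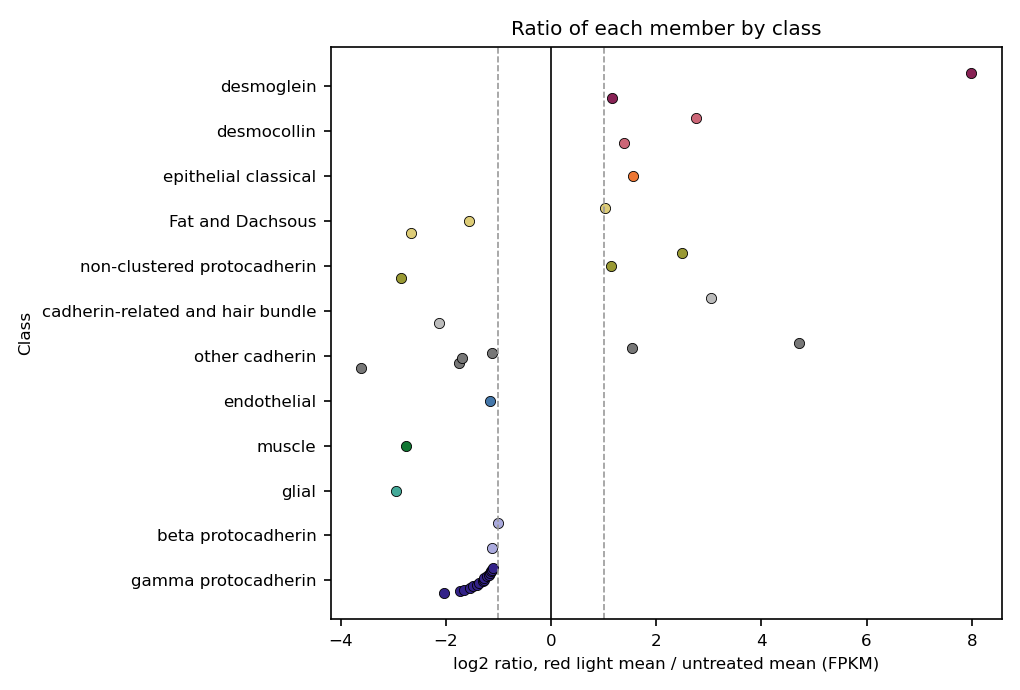
Log2 ratio of red light to untreated mean FPKM for each member, by class (1 point per gene, dashed lines at a 2-fold difference). Desmoglein, desmocollin and epithelial classical genes lay right of 0, endothelial, muscle, glial, beta and gamma genes left of it, and the remaining classes on both sides.

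Cadherins of other tissues went both ways. Cdh6, a type II cadherin known from kidney and neural crest, had 0.147 FPKM in untreated and 3.83 FPKM in red light skin, 26.1-fold higher, the second largest ratio after that of Dsg4. Cdh24, also of type II, had 0.333 and 0.963 FPKM, 2.89-fold higher, and Cdh9, a type II cadherin of neurons and kidney, 0.300 and 0.0933 FPKM, 3.21-fold lower. Cdh6 was the only 1 of the 3 above 1 FPKM in either group. Its ratio to Cdh2 was 0.0957 in the untreated and 8.38 in the red light group. Melanocyte markers, genes of another neural crest lineage, were higher in 6 of 6 listed of 8, with summed FPKM of 8.74 and 149 and none at 0. The 6 were Dct (4.72 and 51.0 FPKM), Pmel (1.92 and 44.3), Tyrp1 (1.93 and 41.0), Tyr (0.0900 and 6.79), Oca2 (0.0167 and 3.46) and Slc45a2 (0.0633 and 2.22). The listed Schwann cell markers given above, also of a neural crest lineage, were lower in 7 of 7. Whether melanocytes, follicle cells or others carried the Cdh6 signal was not tested. Cdhr5, a protocadherin-like protein of intestinal microvilli, had 0.0633 and 0.523 FPKM, 8.26-fold higher, and Cdh23, which forms the tip links of hair cells in the ear, 0.147 and 0.0333 FPKM, 4.40-fold lower.

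The Fat genes split. Fat1, the giant cadherin of epithelial and other cells, had 9.41 FPKM in untreated and 19.2 FPKM in red light skin, 2.04-fold higher. Fat4, the receptor of Dachsous ligands, had 1.77 and 0.603 FPKM, 2.93-fold lower, and Fat3, known from neurons, 0.127 and 0.0200 FPKM, 6.33-fold lower. Fat1 therefore stood 5.32 times above Fat4 in untreated skin and 31.8 times above it in red light skin. Fat2, Dchs1 and Dchs2 were not in the table. Of 20 genes of planar polarity and of the pathway that Fat cadherins feed into, 9 were listed, 6 higher and 3 lower. The 4 named were Vangl2, a core planar polarity protein that orients hair follicles, at 3.66 and 19.6 FPKM, Fzd6, a receptor needed for hair orientation, at 10.9 and 25.7 FPKM, Ccn1, a target of YAP, at 198 and 33.5 FPKM, and Lix1l at 23.4 and 9.57 FPKM. Among 7 more distant cadherin-repeat genes 4 were listed. The polarity cadherins Celsr1 (13.4 and 30.2 FPKM) and Celsr2 (9.69 and 27.1 FPKM) and the receptor kinase Ret (2.99 and 11.3 FPKM) were higher, and the calsyntenin Clstn3 (33.4 and 13.8 FPKM) was lower. Members of both lists therefore stood on either side, as the Fat genes did.

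Among protocadherins outside the clusters 3 of 11 were listed. Pcdh19, a protocadherin of neurons that causes an X-linked epilepsy in humans, had 1.48 FPKM in untreated and 3.25 FPKM in red light skin, 2.2-fold higher. Pcdh8, known from embryonic mesoderm and synapses, had 0.0433 and 0.243 FPKM, 5.62-fold higher. Pcdh20 had 1.31 and 0.180 FPKM, 7.26-fold lower. These genes lay at or below a few FPKM in both groups and did not share a direction.

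The listed gamma protocadherins were all lower, by modest ratios at low levels. Of the 22 gamma genes in RefSeq 16 were listed, 10 of 12 A genes, 6 of 7 B genes and 0 of 3 C genes, and all 16 were lower. Their log2 ratios lay between −2.04 and −1.10, with a median of −1.28 and an SD over genes of 0.26. The summed level was 25.2 FPKM in untreated and 10.05 FPKM in red light skin, 2.51-fold lower. With a pseudocount of 1, 0 of the 16 kept a 2-fold difference and the median log2 ratio was −0.60. Scaled to the listed genes without the hair list, 7 of the 16 kept it, with a median of −0.94. The A genes had a median of −1.25 and the B genes of −1.39, and the ranges of the A and B genes overlapped.

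Single gamma genes were expressed at low levels in both groups. Pcdhgb6 was the highest, at 4.71 FPKM in untreated and 1.93 FPKM in red light skin, and Pcdhga2 the lowest, at 0.333 and 0.143 FPKM. The smallest difference was that of Pcdhga10, with 1.69 and 0.787 FPKM, 2.15-fold lower. The largest was that of Pcdhga8, with 0.833 and 0.203 FPKM, 4.10-fold lower, followed by Pcdhgb5 (1.04 and 0.313 FPKM) and Pcdhgb4 (0.890 and 0.283 FPKM). These 3 are neighbours in the cluster, at places 10, 11 and 12 of 22. The other listed A genes, Pcdhga3, Pcdhga4, Pcdhga5, Pcdhga6, Pcdhga7, Pcdhga11 and Pcdhga12, had 1.12 to 2.08 FPKM in untreated skin and 0.423 to 0.807 FPKM after red light. Pcdhgb1 had 1.23 and 0.547 FPKM, Pcdhgb2 2.09 and 0.747 FPKM and Pcdhgb7 2.04 and 0.843 FPKM. The order of the genes by level was nearly the same in both groups, with a Spearman rho of 0.95 over the 16 genes, which share their libraries and part of their sequence. Place in the cluster and log2 ratio gave a rho of −0.25 over the same genes.

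**Figure D5:**
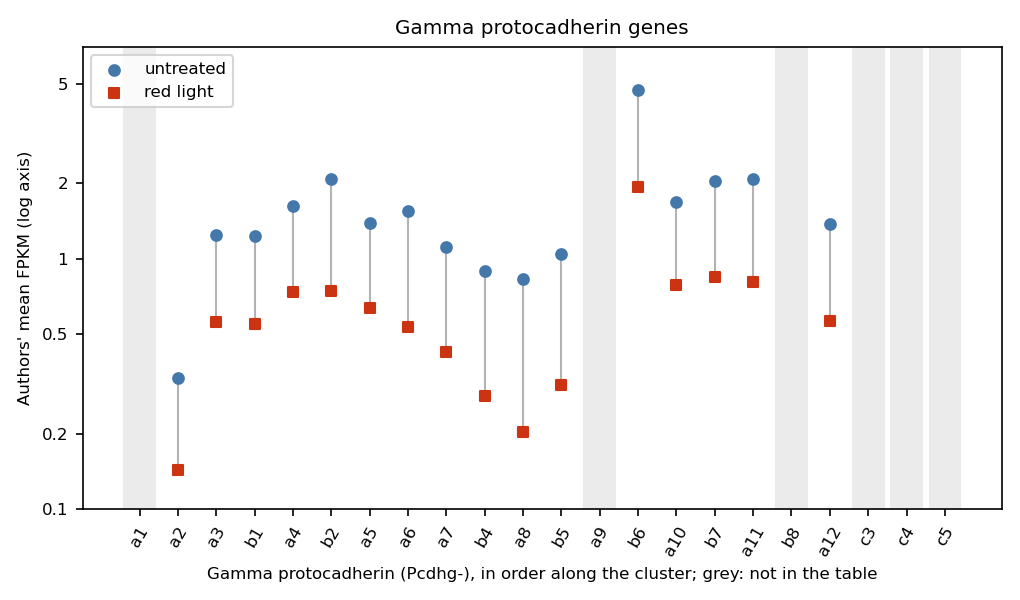
Authors' mean FPKM (log axis) of each listed gamma protocadherin in untreated (blue circles) and red light skin (red squares), in order along the cluster, with grey bands for the 6 genes outside the table. All 16 listed genes were lower after red light, from 2.15-fold for Pcdhga10 to 4.10-fold for Pcdhga8.

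The 16 gamma values are not independent of one another. In GENCODE M21, between 41.0% (Pcdhga12) and 64.7% (Pcdhga4) of the 75-base windows of a listed gamma gene's longest coding transcript also stood in a transcript of another gene, and every one shared windows with the 21 other gamma genes. Windows of this kind made up 0.452% of Pcdhb14 and 1.26% of Pcdhb4, and 0 windows in the other 22 members. Reads from the shared exons can be divided among gamma genes only by estimation, so the level of a single gamma gene is uncertain, and a count of 16 genes in 1 direction carries less than 16 separate measurements.

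Beside the gamma genes, beta and alpha protocadherins were sparse. Of 22 beta genes 2 were listed, both lower: Pcdhb14, at 0.377 FPKM in untreated and 0.187 FPKM in red light skin, and Pcdhb4, at 0.587 and 0.270 FPKM. Of 14 alpha genes 0 were listed. The summed gamma level was set beside the single genes Cdh5, Cdh19 and Cdh3 only. It was 0.874 times the level of Cdh5 in untreated and 0.778 times in red light skin. Its ratio to Cdh19 was 10.6 and 32.4 and its ratio to Cdh3 3.05 and 0.412. Closeness to Cdh5 was not particular. Red light over untreated was 0.398 for the gamma sum and 0.447 for Cdh5. The same quotient was 0.400 for the summed macrophage markers and 0.349 for the summed endothelial markers. Fibroblast markers were listed for 7 of 10, 3 higher and 4 lower by their means, with summed FPKM of 1753 and 1524 and none at 0; Col3a1, counted as higher, is labelled as lower in the authors' deposited table. Those named were Dcn (864 and 275 FPKM), Pi16 (92.9 and 34.2) and Dpt (245 and 96.5) on the lower side and Col1a1 (126.9 and 346) on the higher. Macrophage markers were lower in 8 of 8, with summed FPKM of 1443 and 577 and none at 0. Those named were Adgre1 (30.6 and 9.90 FPKM), Csf1r (92.2 and 33.8), Lyz2 (789 and 302) and C1qb (203 and 82.2). Which cells carried the gamma protocadherin signal was not tested.

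Large differences were split between directions. Of the 40 members 5, or 12.5%, were higher by at least 4-fold (Dsg4, Cdh6, Cdhr5, Dsc2 and Pcdh8), against 18.2% of all listed genes. Lower by as much were 7 members, or 17.5% (Cdh4, Cdh19, Pcdh20, Cdh15, Fat3, Cdh23 and Pcdhga8), against 18.9%. Neither share was above the background. Low levels limit several of these folds. In 11 members both means were below 1 FPKM, and in 31 at least 1 mean was. If library values were rounded to 2 decimals before averaging, a mean can be off by up to 0.005 FPKM. Rounding alone then allows a fold of 4.87 to 8.78 for Fat3, 3.70 to 5.35 for Cdh23, 4.93 to 6.48 for Pcdh8 and 7.59 to 9.06 for Cdhr5, but 247 to 263 for Dsg4 and 11.96 to 12.3 for Cdh4. For Pcdhga8, the range was 3.98 to 4.23, on both sides of 4-fold. These ranges cover rounding only, not the spread between animals or counting error, since read depth is unknown.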

How the data were processed

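Per the labels' protocols, Trizol was used to extract total RNA of dorsal skin, oligo(dT) beads to enrich mRNA and the NEBNext Ultra RNA kit to prepare libraries. Per the submitters' processing notes, RSEM, DESeq2 1.40.2, R 4.3.1 and Bowtie2 2.2.8 were used, in roles that are not given. Per the file headers, the deposited table holds the authors' mean FPKM for each group and a label of direction. Genome build, strand setting, number of libraries and the criteria for listing a gene are not given in the sources used here. All 8366 deposited means are whole multiples of 0.01/3 (tolerance 1e-06 of a multiple). Depth is unknown, so no interval or detection floor is given.

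Ratios were taken between the group means without a pseudocount. Levels come from 1 value per group, so nothing was tested. Members and gene lists were chosen with earlier results of these data known. Every member is named. Of 9 partner and 12 cell type lists, every gene in the table is named where 6 or fewer are, otherwise the 4 with the largest log2 ratio in size among those of at least 1 FPKM in either group. Klf4 is named besides, as the lower gene of its list. Some genes of the Schwann cell list are not reported here. Shared 75-base windows were counted on the same strand in GENCODE M21 transcripts. Windows at annotated starts came from RefSeq (GRCm38.p6), where 12 of 40 members were matched, and class sizes from RefSeq symbols. Alternatives were pseudocounts of 1 and 0.1, a minimum of 1 FPKM, 2 rescalings, a 4-fold limit and the authors' label. The ratio and the member rule were tested on simulated data. Python 3.11.15, numpy 2.4.6, pandas 2.3.3 and matplotlib 3.10.9 were used.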

Additional observations from a re-analysis of the deposited data

How the results depend on the processing

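Counts of members that differ by at least 2-fold, 11 higher and 29 lower, and medians of classes of at least 5 members were recomputed; a change of over 1.5-fold counted as a move. With a pseudocount of 1, which shrinks low genes, 5 higher and 5 lower members kept a 2-fold difference, and the median log2 ratio was −0.55 over all members, −0.60 for the gamma protocadherins and −0.52 for the other cadherins. A 4-fold limit left 5 higher and 7 lower, by construction. Scaling to all listed rows left 7 higher, and scaling without the hair list left 16 lower, because each shifts every ratio by the same amount. Without the gamma protocadherins, an alternative chosen after seeing the data, 13 were lower. A pseudocount of 0.1, the 1 FPKM minimum and the authors' label moved neither count. Of the 40 single ratios 27 moved with a pseudocount of 1 and 7 with 0.1. With either scaling 0 moved, which was fixed in advance because both shifts lie below 1.5-fold. None of these alternatives reversed a member, and none could. A common pseudocount cannot do so, and each scaling shift was smaller than every member's difference. Replicates could not be left out, since single libraries were not used. No paired analysis was possible because the table gives 1 mean per gene and group. Counting error in low genes could not be assessed without depth.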

Other observations

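Other adhesion families, chosen after their values were seen, can be set beside the cadherins. Of all listed genes 38.6% were higher and 61.4% lower. Of 12 listed claudins, the proteins of tight junctions, 7 were higher and 5 lower. The epithelial Cldn4 had 61.0 FPKM in untreated and 160 FPKM in red light skin, and Cldn1 49.1 and 105 FPKM, whereas the endothelial Cldn5 was 4.62-fold lower and Cldn19, a claudin of Schwann cells, had 4.84 and 0.823 FPKM. Epithelial claudins did not share a direction, since Cldn23, also of the epidermis, had 17.3 and 4.99 FPKM. All 10 listed integrin subunits were lower, with a median difference of 2.79-fold. They include Itgb4 and the T cell subunits Itgae and Itgb7 given above, so they do not stand for 1 kind of cell. Of 8 listed ephrins and Eph receptors 6 were higher, among them Ephb3, at 7.45 and 33.9 FPKM, and Epha4, at 3.32 and 12.1 FPKM. No test was made, and these families were not compared with all listed genes beyond the shares given above.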
